A study of Mus musculus with 4 samples.

Results

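Proenkephalin (PENK) and 6 enzymes that cut or trim peptide precursors were followed through the messenger RNA of 2 stimulated CD4+ T cell subsets of mouse spleen. The 7 genes are PENK, the convertases FURIN, PCSK5 and PCSK7, the carboxypeptidases CPD and CPE, and the amidating enzyme PAM. They were picked by symbol with their difference between the subsets already known, so that this difference is given here as a description, without a test. A gene model was found for 6 of the 7, out of 38588 models in the tables. PCSK5 is not analysed here. The question asked of the data is whether RNA for the proteases that could cut the precursor was read in the same subset as PENK. Bulk libraries cannot show whether both RNAs were in the same cells.

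The RbLoTem subset (Rb_lo in the labels) held effector/memory cells sorted as CD62L-, CD44+ and CD45RbLo. The RbHiTn subset (Rb_hi) held naive cells sorted as CD62L+, CD44- and CD45RbHi. Both subsets were CD4+ and FoxP3-, came from the spleens of resting C57BL/6-Foxp3tm1Flv/J mice, which carry a reporter at the Foxp3 locus, and had been cultured for 72 h in wells coated with anti-CD3 antibody (2 ug in the labels), which engages the T cell receptor complex. No unstimulated cells were among the libraries. Each subset was sequenced as 2 libraries, 1 of which has the suffix o in its label, and the sources used here do not give the number of mice behind a library. Whether the pair came from separate animals or cultures is not stated, and p-values therefore measure the spread between these libraries alone, which may be technical.

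Enkephalins are short opioid peptides that are released from a larger precursor, the product of PENK. In endocrine cells and neurons, proprotein convertases cut such precursors after pairs of basic residues, carboxypeptidases remove the basic residues that are left at the end, and PAM converts a terminal glycine into an amide in those peptides that have one. The prohormone convertases PCSK1 and PCSK2 do most of this cutting in neuroendocrine granules, whereas furin, PCSK5 and PCSK7 are found along the constitutive secretory route of many cell types. Activated T helper cells are known to transcribe Penk.

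Libraries held 4192083 to 6514106 reads within genes, of which 3795660 to 5873287 lay in exons. Levels are given as exon reads and as RPKM, in which exon reads are scaled to the exon length of a model and to the reads that the library has in genes. The models have human symbols and positions, so that a model with no reads may still belong to a mouse gene that was transcribed. CD3E, CD3G, LCK and ZAP70, which mark T cells, were read in all 4 libraries, and the CD3D, CD2 and CD28 models held 0 reads. The CD4 model had 4 and 1 reads in RbHiTn and 2 and 3 in RbLoTem cells, although the cells had been sorted for CD4. Of 6 tested T cell markers, edgeR called 3 lower in RbLoTem cells, CD3G at a log2 fold change of -1.10, CD3E at -0.93 and LCK at -0.26, and none higher. Over all tested models it called 23.6% lower and 24.3% higher. The 10 models of the B cell list added up to 9.18 and 10.1 RPKM in the RbHiTn libraries against 0.278 and 0.328 in the RbLoTem libraries. For the 8 myeloid and dendritic cell models the sums were 4.12 and 3.71 against 0.455 and 0.552. The CD79A, MS4A1 and SPI1 models held 0 reads in both RbLoTem libraries, and the 4 models of the CD8 and NK cell list held 0 reads everywhere. The 4 regulatory T cell models summed to 15.5 and 18.2 RPKM in RbHiTn and to 21.5 and 23.1 RPKM in RbLoTem cells. Most of this was CTLA4, at 15.4 and 18.2 RPKM against 20.5 and 22.1 RPKM. TNFRSF18 and TNFRSF4 held 0 reads everywhere, and IKZF2, which encodes Helios, had 3 and 0 reads against 60 and 79. The part of such cells in the differences described below was not tested.

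PENK was almost unread in RbHiTn cells and among the better read genes in RbLoTem cells. The RbHiTn libraries without and with the suffix held 11 exon reads each, and the RbLoTem libraries held 1156 and 1830. In RPKM these are 0.489 and 0.759 against 71.6 and 82.3. The subsets were far apart, and the RbLoTem libraries differed from each other far less than from either RbHiTn library. The mean was 77.0 ± 7.61 RPKM in RbLoTem and 0.624 ± 0.191 RPKM in RbHiTn cells (SD, n = 2 libraries each). The log2 fold change fitted by edgeR was 7.01, which placed PENK at rank 15 of the 6539 tested models. Its standard error, derived from the F value of the test, was 0.15. Per exon read of the library the ratio was 129, with an exact 95% interval of 85.3 to 207 that covers counting error only. That interval is wider than the standard error implies, so that the standard error understates the uncertainty. In these bulk libraries, fewer PENK-transcribing cells and less PENK RNA per cell cannot be told apart. Among models with reads, PENK stood above 92.7% and 93.7% in the RbLoTem libraries and above 27.4% and 30.3% in the RbHiTn libraries.

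**Figure D1:**
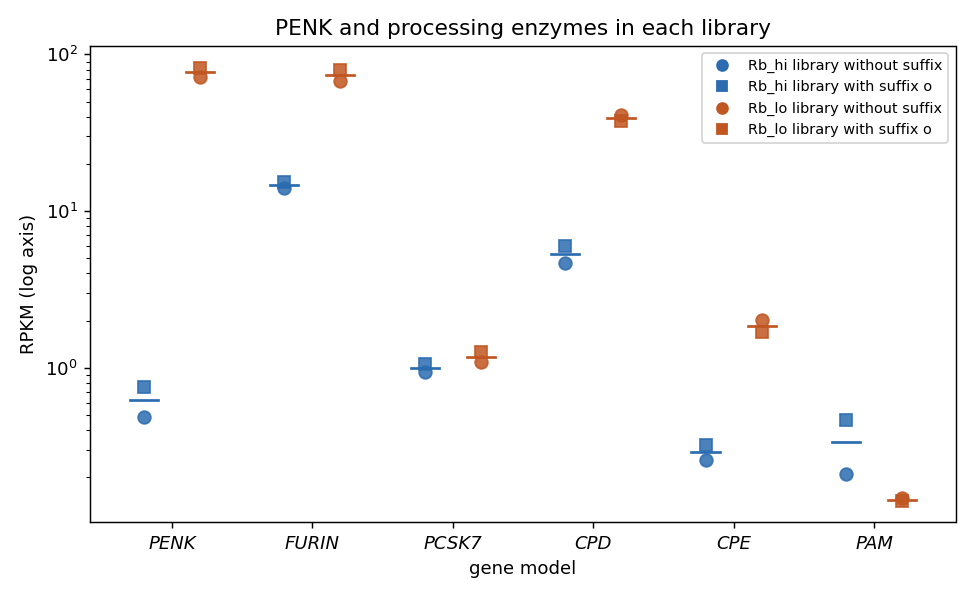
RPKM of the 6 gene models in each of the 4 libraries, on a log axis; blue marks are RbHiTn (Rb_hi) and orange marks RbLoTem (Rb_lo) libraries, circles the libraries without and squares those with the suffix o, and short lines the mean of each pair. PENK, FURIN, CPD and CPE are higher in both RbLoTem libraries, PCSK7 is close in all 4, and PAM is lower in RbLoTem.

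No PENK read crossed an exon boundary. Of 3008 exon reads over the 4 libraries 0 spanned an exon-exon junction, which allows a share of up to 0.0997%. All of them matched a single place. The processing enzymes were read across junctions in 73.1% (CPD) to 90.9% (PCSK7) of their exon reads, with FURIN at 76.1% (1464 of 1924, Wilson 95% interval 74.1 to 77.9%). Among 2586 models with at least 1000 exon reads and at least 3 exons, 24 (0.928%) had no such read, MAF and CCR7 among them, and the median share was 85.4%. In the mouse the Penk gene (GRCm38 chromosome 4, 4133531 to 4138819, minus strand) has a main transcript, Penk-201, of 2 exons and 1449 bases, and its last exon holds 666 of the 804 coding bases (82.8%). For Cpd, Cpe, Furin, Pam and Pcsk7 the last exon holds 5.42% to 24.7% of the coding bases. Reads from the last exon alone contain no junction, and whether that accounts for the PENK reads was not tested. The median coverage of the PENK model was 0 in all 4 libraries, as it was for 87.8% to 88.4% of models with at least 100 reads, so that no read lay on the larger part of the model.

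**Figure D2:**
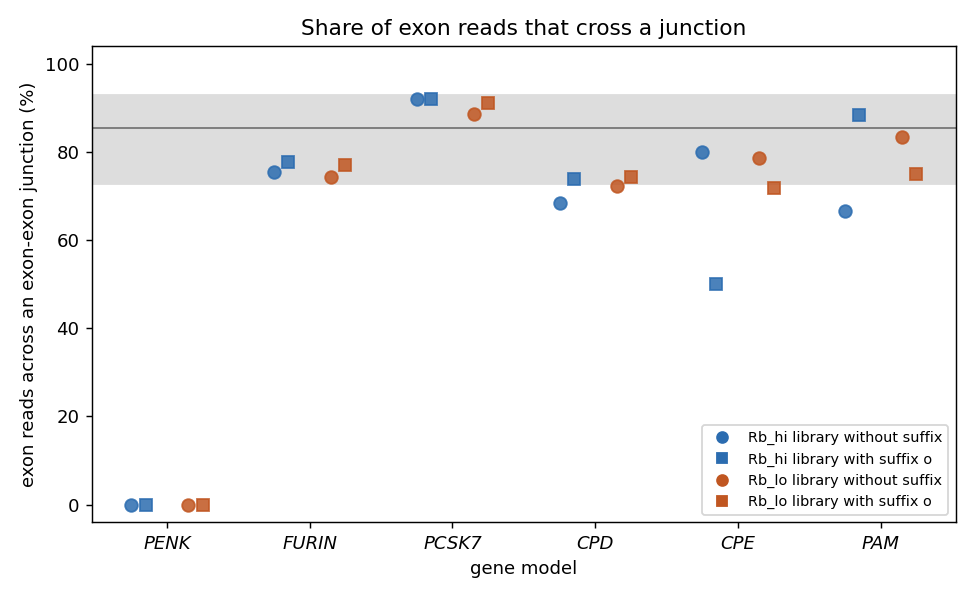
Percent of exon reads that crossed an exon-exon junction, for each gene model and library, with colours and shapes for subset and suffix as in the plot of RPKM; the grey band spans the quartiles (72.8% to 93.0%) and the line the median (85.4%) of 2586 well read models. PENK is at 0 in all 4 libraries, and the scatter of CPE and PAM goes with totals of 69 and 43 reads.

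Of the convertases, FURIN was read in both subsets and more in RbLoTem cells. Furin is a membrane-bound protease of the trans-Golgi network that cuts after basic motifs. FURIN exon reads were 179 and 126 in the RbHiTn and 617 and 1002 in the RbLoTem libraries, or 14.1 and 15.4 RPKM against 67.5 and 79.7 RPKM. The libraries of the subsets did not overlap, which held for all 6 models and sets none of them apart. Its mean level was 14.7 ± 0.932 RPKM in RbHiTn and 73.6 ± 8.60 RPKM in RbLoTem cells (SD, n = 2 each), and the log2 fold change was 2.35 (standard error 0.10). FURIN was the only one of the 6 models with a median coverage above 0, at 8 and 4 in the RbHiTn and 28 and 35 in the RbLoTem libraries. In the files its model covers 91416108 to 91423326 of human chromosome 15, with a build that they do not name.

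PCSK7 was read at a similar level in both subsets, a low one by RPKM. It encodes a convertase that cycles between the trans-Golgi network and the cell surface. Its exon reads were 136 and 99 in the RbHiTn and 113 and 181 in the RbLoTem libraries, which is 0.936 and 1.06 RPKM against 1.08 and 1.26 RPKM. The lowest RbLoTem library was only 1.02 times the highest RbHiTn library. The log2 fold change was 0.27 (standard error 0.14). The PCSK7 model holds 22303 bases of exon where the mouse transcript has 3876, which lowers its RPKM relative to the other genes.

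The ratio of FURIN to PCSK7 RPKM was 15.0 and 14.5 in the RbHiTn libraries and 62.3 and 63.2 in the RbLoTem libraries. Divided by the length of the mouse transcript in place of the model, the ratio of the means was 1.20 in RbHiTn and 5.12 in RbLoTem cells. How far FURIN exceeded PCSK7 therefore depends on the length used, while the change of the ratio between the subsets does not.

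The carboxypeptidases CPD and CPE were both higher in RbLoTem cells, at very different levels. Carboxypeptidase D is a membrane protein of the trans-Golgi network, and carboxypeptidase E is the enzyme of regulated secretory granules. CPD had 250 and 207 exon reads in the RbHiTn and 1584 and 1994 in the RbLoTem libraries, or 4.65 and 5.98 RPKM against 41.1 and 37.6 RPKM. The mean was 5.32 ± 0.942 RPKM in RbHiTn and 39.3 ± 2.47 RPKM in RbLoTem cells (SD, n = 2 each), and the log2 fold change was 2.92 (standard error 0.09). The read ratio of CPD was 7.46 (95% counting interval 6.77 to 8.24) and that of FURIN 5.06 (4.47 to 5.74), and the difference between them was not tested.

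CPE was read in few copies. Its exon reads were 5 and 4 in the RbHiTn and 28 and 32 in the RbLoTem libraries, or 0.259 and 0.323 RPKM against 2.03 and 1.68 RPKM. The read ratio was 6.35 with a wide 95% counting interval of 3.13 to 14.6. The log2 fold change was 2.66 (standard error 0.43) on exon reads and 0.44 on all reads within the model. Between these counts lie 99, 51, 74 and 82 reads that fell within the CPE model but outside its exons, in the RbHiTn and then the RbLoTem libraries, none of which matched a single place. The exon reads of CPE all did. CPD exceeded CPE 17.9- and 18.5-fold in RPKM in RbHiTn and 20.3- and 22.3-fold in RbLoTem cells. The RbHiTn ratios rest on 5 and 4 CPE reads, and whether the balance of these carboxypeptidases differed between the subsets was not tested.

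**Figure D3:**
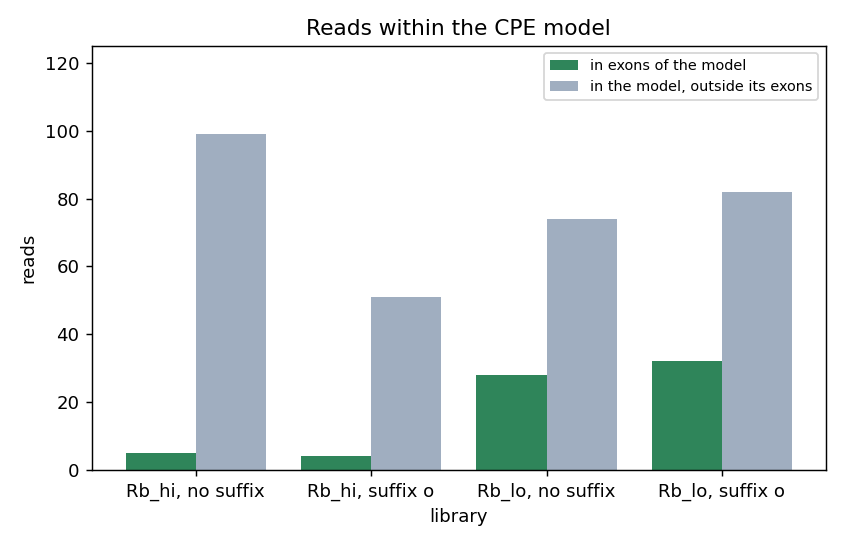
Reads within the CPE gene model in each library; green bars are reads in exons and grey bars reads inside the model but outside its exons. Exon reads are 5 and 4 in the Rb_hi and 28 and 32 in the Rb_lo libraries, while the grey bars stay between 51 and 99 and do not separate the subsets.

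PAM was the only one of the 6 models with lower values in RbLoTem cells, at few reads. It encodes the enzyme that amidates peptides with a terminal glycine. The RbHiTn libraries held 12 and 17 exon reads and the RbLoTem libraries 6 and 8, or 0.211 and 0.464 RPKM against 0.147 and 0.142 RPKM. The RbHiTn pair spread widely at these counts (0.337 ± 0.179 RPKM, SD, n = 2), and the read ratio of 0.460 had a 95% counting interval of 0.225 to 0.899. The log2 fold change was -1.10 (standard error 0.48), and edgeR did not call it. It was -0.53 without the RbHiTn library that has the suffix and -1.65 without the other RbHiTn library.

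Over all tested models, edgeR called 24.3% higher and 23.6% lower in RbLoTem cells at an adjusted p under 0.05. All 6 models passed its filter on low counts. PENK and CPE passed through the RbLoTem libraries alone and PAM through the RbHiTn libraries alone. The filter thus favoured a higher value of PENK and CPE and a lower value of PAM in RbLoTem cells. Of the 6 models, 4 (PENK, FURIN, CPD and CPE) met this threshold as higher and 0 as lower, and PCSK7 and PAM did not meet it. DESeq2 also called 4 as higher and 0 as lower, and without adjustment 1 (PAM) was lower at that threshold by edgeR. The median log2 fold change of the 6 was 2.50, against -0.01 over all 6539 tested models, and 4 of the 6 reached a log2 fold change of 2, as 198 tested models did (3.03%). Since the genes were chosen with these values known, the counts describe the choice. PAM was counted as lower when reads were scaled by library size alone, when only unique exon reads were used, with a replicate block on the suffix, and without the RbHiTn library that lacks the suffix.

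By RPKM, PENK and FURIN led the order in RbLoTem cells and did not differ beyond their spread (77.0 ± 7.61 and 73.6 ± 8.60 RPKM). CPD followed at 39.3 ± 2.47 RPKM, then CPE at 1.85 ± 0.243, PCSK7 at 1.17 ± 0.126 and PAM at 0.145 ± 0.00323 RPKM. In RbHiTn cells the order was FURIN, CPD, PCSK7 (0.997 ± 0.0868 RPKM), PENK, PAM and CPE (0.291 ± 0.0446 RPKM), and the levels of PAM and CPE were within their spread. PENK RPKM was 0.0348 and 0.0494 times FURIN RPKM in the RbHiTn libraries and 1.06 and 1.03 times in the RbLoTem libraries. PENK RPKM relative to CPD was 0.105 and 0.127 against 1.74 and 2.19. The order rests on the length of human models. Divided by the length of the mouse transcript in place of the model, PENK was at 184 ± 18.1, CPD at 40.8 ± 2.57, FURIN at 34.5 ± 4.04 and PCSK7 at 6.75 ± 0.723 RPKM in RbLoTem cells. PENK then exceeded FURIN 5.31-fold, CPD and FURIN changed places, and PCSK7 passed CPE, which was at 2.59 ± 0.339 RPKM. The FURIN model holds 1955 exon bases where the mouse transcript has 4166, and reads beyond the model were not counted. Division by the mouse length can therefore place FURIN too low, and neither order is settled. In RbHiTn cells by that length FURIN was at 6.91 ± 0.438, PCSK7 at 5.74 ± 0.4995 and CPD at 5.52 ± 0.979 RPKM, so that PCSK7 and CPD were within their spread. PENK was at 1.49 ± 0.456, PAM at 0.720 ± 0.382 and CPE at 0.407 ± 0.0623 RPKM there. The comparison of subsets within a gene does not depend on that length.

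Sequence before the start site is shown for Furin and Cpd, the processing enzymes with the most reads in RbLoTem cells, from RefSeq on GRCm38.p6. Each run is the 250 bases before a RefSeq start, on the strand of the gene. Furin has 2 starts, and the downstream window lies inside the gene. Of the 7 genes, 5 had an entry, with 7 windows in all. Both strands of these windows were searched for an AP-1 site (TGANTCA), a CRE core (TGACG) and a STAT site (TTCNNNGAA). Capitals mark the only match found to these motifs, a CRE core read on the other strand as CGTCA, 126 bases before the first Furin start.
Furin, upstream start, chr7:80405437-80405686, minus strand: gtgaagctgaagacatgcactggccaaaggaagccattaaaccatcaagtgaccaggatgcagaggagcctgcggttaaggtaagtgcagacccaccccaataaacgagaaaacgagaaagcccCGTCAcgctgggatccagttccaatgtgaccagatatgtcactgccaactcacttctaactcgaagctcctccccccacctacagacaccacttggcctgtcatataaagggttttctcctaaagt
Furin, downstream start, chr7:80402813-80403062, minus strand: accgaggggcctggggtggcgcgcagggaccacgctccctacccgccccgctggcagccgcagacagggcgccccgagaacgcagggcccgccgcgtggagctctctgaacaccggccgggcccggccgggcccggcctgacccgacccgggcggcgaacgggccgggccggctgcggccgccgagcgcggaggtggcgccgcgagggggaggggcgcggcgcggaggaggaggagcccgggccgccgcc
Cpd, chr11:76847009-76847258, minus strand: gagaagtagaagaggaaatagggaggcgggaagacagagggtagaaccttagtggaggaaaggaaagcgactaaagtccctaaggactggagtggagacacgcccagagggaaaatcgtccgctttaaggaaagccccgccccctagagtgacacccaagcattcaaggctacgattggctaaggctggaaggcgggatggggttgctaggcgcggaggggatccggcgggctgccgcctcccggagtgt
A CRE core is present in 17.8%, an AP-1 site in 6.75% and a STAT site in 7.02% of all 32851 windows of this length. A GC box (GGGCGG, either strand) is present in 32.7% of windows, with 2 matches in the downstream Furin window, 1 in Cpd and 0 in the upstream Furin window. The upstream and downstream Furin windows differ in base composition, at 50.4% and 83.2% G or C. A match is a description of letters, and no binding was measured here.

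Few reads fell on the models of other convertases, MBTPS1 apart. Of 9 other convertases and partners listed, 7 had a model and 2 passed the filter, and PCSK2 is not analysed here. PCSK1, the main convertase of regulated granules, had 0 and 1 reads in the RbHiTn and 3 and 7 in the RbLoTem libraries, a ratio of 9.53 with a 95% counting interval of 1.36 to 414. PCSK6 held 0 reads in all libraries. For MBTPS1, the site-1 protease, the log2 fold change was 0.06 (standard error 0.07) and the adjusted p 0.51 by edgeR. PACS1, a sorting protein that returns furin to the trans-Golgi network, was lower in RbLoTem cells, at 7.58 and 8.92 RPKM against 13.4 and 14.9 RPKM (log2 fold change -0.75, standard error 0.09, adjusted p = 2.1e-08 by edgeR). FURIN and PACS1 thus differed between the subsets in opposite directions.

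Among 9 other carboxypeptidases and precursor-trimming enzymes, 5 had a model and RNPEP alone was tested. RNPEP, an aminopeptidase that removes basic residues from the front end of peptides, was at 21.6 and 23.8 RPKM in RbHiTn and 44.6 and 47.1 RPKM in RbLoTem cells (log2 fold change 1.04, standard error 0.08, adjusted p = 2e-12 by edgeR). QPCTL, a glutaminyl cyclase of the Golgi, had 5 and 3 reads against 11 and 10.

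Genes of secretory granules were read at low levels, the most reads falling on SCG2 and PTPRN in RbLoTem cells. Of 9 listed, 8 had a model, SCG2 and PTPRN passed the filter, through the RbLoTem libraries alone, so that a higher value there was fixed by the filter, and CHGA and SCG3 held 0 reads in all 4 libraries. SCG2 encodes secretogranin II, a granin of dense-core granules. It had 2 and 0 exon reads in the RbHiTn and 20 and 19 in the RbLoTem libraries. The read ratio was 18.6, with a 95% counting interval of 4.81 to 159. The fitted log2 fold change of SCG2 was 4.09, 3.44 without the RbHiTn library that has the suffix, and 7.19 against that library alone, which is at 0 and gives no bound. PTPRN encodes IA-2, a membrane protein of such granules. It had 4 and 2 reads against 34 and 47 (log2 fold change 3.66, standard error 0.44). Both stayed under 2 RPKM in every library, well below PENK.

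Precursors and receptors related to PENK had almost no reads. Of 8 opioid precursors and receptors 5 had a model, and PNOC, OPRM1, OPRD1 and OPRK1 held 0 reads. POMC, the precursor of beta-endorphin, had 0 and 3 reads in RbHiTn and 0 and 3 in RbLoTem cells. Of 21 other peptide hormone precursors 16 had a model and 13 of these held 0 reads. EDN1, the endothelin precursor, which furin can cut, had 0 reads in RbHiTn and 4 and 6 in RbLoTem cells, and the exact 95% counting interval of its read ratio began at 2.14. NPPC, a natriuretic peptide precursor, had 1 and 1 reads against 3 and 2.

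The machinery that brings a precursor into the endoplasmic reticulum was read at high levels in both subsets and differed little. Of 8 tested genes of the signal peptidase and translocon, 5 were higher and SPCS2 was lower in RbLoTem cells, with a median log2 fold change of 0.28. The shares over all tested models were 24.3% higher and 23.6% lower. SEC61G had the largest increase, 0.50 (standard error 0.07, adjusted p = 9.5e-07 by edgeR), followed by SEC61A1 at 0.47 (standard error 0.06, adjusted p = 2.4e-08). Both are subunits of the translocation channel. The decrease of SPCS2, a signal peptidase subunit, was 0.14 on the log2 scale (adjusted p = 0.048 by edgeR), and it was not called in 10 of the 13 alternatives. In sum the list had 460.9 and 459.3 RPKM in RbHiTn and 534.8 and 531.0 RPKM in RbLoTem cells.

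Peptidases that degrade enkephalins were read only in part. Of 10 models, MME (neprilysin), ANPEP, ACE and ECE2 held 0 reads. Among 6 tested, 3 were higher and 0 lower in RbLoTem cells, against 24.3% and 23.6% of all tested models. NLN, which encodes neurolysin, was higher by 0.68 on the log2 scale (standard error 0.13, adjusted p = 5.1e-05 by edgeR) and ECE1, an endothelin-converting enzyme, by 0.56 (standard error 0.08, adjusted p = 6.8e-07). NPEPPS, a cytosolic aminopeptidase, was higher by 0.27 (standard error 0.06, adjusted p = 0.00029). DPP3, which removes dipeptides from enkephalins, had a log2 fold change of -0.19 (adjusted p = 0.082), the 1 decrease at an unadjusted p under 0.05 by edgeR, and DESeq2 called 0 lower.

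Genes of proteins that furin-type convertases cut differed in both directions. Of 10 tested 4 were higher and 3 lower in RbLoTem cells, against 24.3% and 23.6% of all tested models. The median log2 fold change of the 10 was 0.06. INHBA, LRP1 and MMP14, 3 of the higher, passed the filter through the RbLoTem libraries alone, so that a higher value there was fixed by the filter. INHBA, the subunit of activin A, had 9 and 0 reads in RbHiTn and 152 and 210 in RbLoTem cells. On the log2 scale the difference was 5.25 (standard error 0.31), and 3.05 on unique exon reads. Without the RbHiTn library that has the suffix it was 4.54, and without the other, which holds all 9 RbHiTn reads of INHBA, the fit gave 10.38 against a library at 0, which is no bound. LRP1, an endocytic receptor, had 5 and 4 reads against 66 and 101 (log2 fold change 4.13, standard error 0.34). INSR, the insulin receptor, was higher by 1.24 (adjusted p = 2.6e-06 by edgeR), while the related IGF1R was lower, at -1.07 (adjusted p = 7.8e-09). MMP14, a membrane-bound metalloproteinase, had 2.27 (standard error 0.55). It was not called by DESeq2 (adjusted p = 0.063), and it had 1.90 without the RbLoTem library with the suffix. TGFB1 had 0.14 (adjusted p = 0.11), and NOTCH2 and ADAM10 were lower at -0.47 and -0.24 (adjusted p = 5.2e-05 and 0.0005). Over all 8 lists, 29 of 70 models were tested, of which 15 were higher and 5 lower, with a median log2 fold change of 0.25. Of all tested models, 24.3% were higher and 23.6% lower. SCG2, PTPRN, INHBA, LRP1 and MMP14, among the 15, passed the filter through the RbLoTem libraries alone. Whether the lists depart from these shares was not tested.

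**Figure D4:**
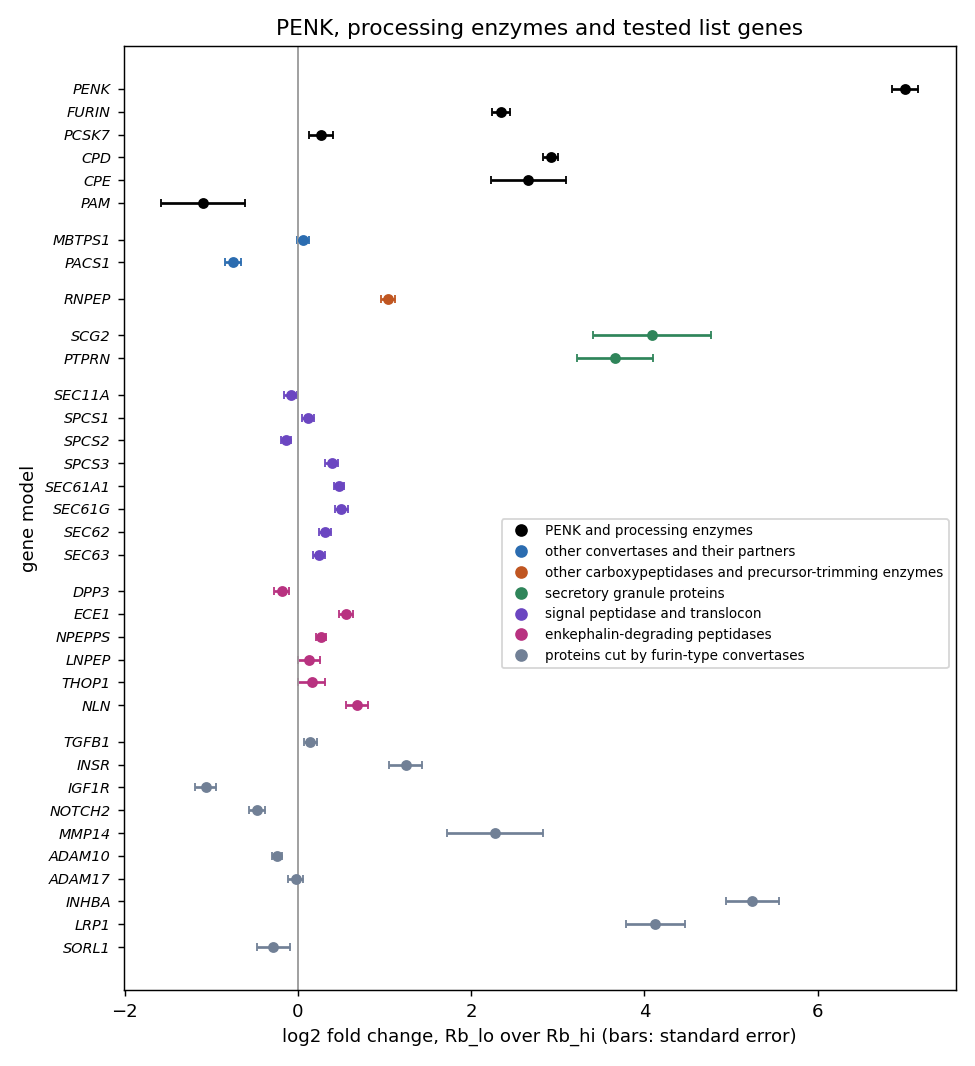
Log2 fold change of RbLoTem over RbHiTn cells from edgeR, with its standard error, for the 6 chosen models (black) and the 29 tested genes of the pathway lists, coloured by list. PENK stands at 7.01, the granule genes SCG2 and PTPRN at 4.09 and 3.66, and the translocon genes lie close to 0. The standard errors derive from the F value of the test and can fall below counting error where reads are few.

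The tested models whose pattern over the 4 libraries was nearest to that of PENK, among 4689 with a mean of at least 2 RPKM in RbLoTem cells, were TTBK1, AJUBA, SYTL3, RAI14 and RND3. Their distances from PENK were 1.01, 1.39, 1.57, 1.82 and 1.89 on the log2(RPKM + 0.1) scale after each gene's own mean was subtracted. In the RbHiTn libraries TTBK1 had 0 and 0 reads, AJUBA 0 and 1, and RAI14 2 and 0. The distances of these genes therefore depend on the added 0.1. SYTL3, a synaptotagmin-like protein that binds Rab27, had 5 and 2 reads in RbHiTn and 169 and 234 in RbLoTem cells. RND3, which encodes a small GTPase, had 5 and 5 reads against 170 and 258. On the same measure FURIN lay 4.46, CPE 4.45 and CPD 3.89 from PENK, while FURIN, CPD and CPE lay 0.356 to 0.639 from each other. The distances of CPE also depend on the added 0.1, since its log2 fold change was 2.32 on that scale and 2.66 by edgeR. The likeness rests on 4 libraries in 2 subsets and was not tested.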

How the data were processed

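Stimulated RbLoTem and RbHiTn cells gave 2 RNA-seq libraries each. Trimmomatic, TopHat, HTSeq, DESeq2 and mm10 are named in the submitters' processing notes. The deposited tables have another layout, with human models, and for these the sources used here give no aligner, annotation or use of strand. The deposited read counts are total, unique and junction reads per model. The deposited RPKM values relate exon reads to exon length and to all gene reads. The deposited median coverage is a signal per model, used in no test. Reads from paralogs, overlapping genes and antisense genes cannot be separated.

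edgeR 4.0.16 in R 4.3.3 was run on exon reads (TMM, factors 0.991 to 1.013, filterByExpr, quasi-likelihood test, Benjamini-Hochberg adjustment over 6539 models). Standard errors derive from edgeR's F value. The alternatives were unique reads, all gene reads, other scalings, no filter, a replicate block, each library left out, DESeq2 1.42.0, and limma 3.58.1 on log2 of RPKM with 0.1 or 1 added. The test was also run on simulated counts, with means and dispersions taken from the fit to these libraries, and the outcome is not given here. Libraries of 1 subset differed by more than sampling noise (chi-square per degree of freedom 2.06 and 2.07). Mouse transcripts come from GENCODE on GRCm38.

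Genes, lists and tests were chosen with earlier results of these data known. Named genes are the chosen 7, the tested list members, led by the largest called changes of each list, and the 5 models nearest to PENK. Untested list genes with few reads, and the marker genes, were named after their values were seen. Some list genes are not reported here.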

Additional observations from a re-analysis of the deposited data

Results flagged for a closer look

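Reads within the CPE model but outside its exons came to 306 over the 4 libraries, more than the 69 reads in its exons. They were looked at because the comparison of exon reads does not use them and their number is above the 3 reads that a count of 0 allows. They numbered 99 and 51 in the RbHiTn and 74 and 82 in the RbLoTem libraries, and none matched a single place. Their origin was not tested.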

How the results depend on the processing

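Over 13 alternatives, the 6 chosen models and the list genes that were called kept their direction. Of the list genes that were not called, 4 changed sign with a library left out, none past the threshold. With each library left out in turn, ADAM17 lay between -0.172 and 0.102, LNPEP between -0.0944 and 0.322, MBTPS1 between -0.0212 and 0.140, and SORL1 between -0.541 and 0.0653. Of 78 values for the chosen models 73 stayed close and 5 moved. PENK had 5.59 on log2(RPKM + 1), CPE had 0.44 on all gene reads, 2.32 on log2(RPKM + 0.1) and 1.14 on log2(RPKM + 1), and PAM had -0.22 on log2(RPKM + 1), where the added constant shrinks low levels. With each library left out in turn, PENK lay between 6.67 and 7.29. DESeq2 called 991 genes lower, against 1545 by edgeR, and 1116 against 1592 higher. Of the chosen models, 0 were lower in the analysis reported and 1 (PAM) was lower with library size alone, with unique exon reads and with the replicate block, and 0 to 1 with a library left out, the cause of which was not tested. Among list genes 13 values lost the threshold, 10 of them for SPCS2, and 2 gained it. Libraries with the same suffix did not deviate together (correlation -0.0147), so that the replicate block rests on a shared label alone, and it left 1562 genes higher and 1530 lower. The PENK to FURIN ratio per length of the mouse transcript, 5.31 in RbLoTem and 0.216 in RbHiTn cells against 1.05 and 0.0424 with model lengths, was chosen after seeing the data. Depth limits PAM and CPE most, and with 2 libraries a subset the spread is poorly known.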
